A study of Homo sapiens with 12 samples.

Results

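The 9 genes described here encode the enzymes that make serine and pass its carbon to folate. They were chosen by a fixed list of enzyme names, with earlier results of these data known, as 9 of the 35559 gene symbols to which the estimated counts could be summed. PHGDH, PSAT1 and PSPH are the 3 cytosolic enzymes of serine synthesis, SHMT1 and MTHFD1 are 2 cytosolic folate enzymes, and SHMT2, MTHFD1L, MTHFD2 and ALDH1L2 are 4 mitochondrial ones. Because the measured differences from control were known when the enzymes were chosen, those differences are given as a description and were not used as a test of the enzymes. The comparisons between the TYRO3 constructs were tested.

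RNA was sequenced from WM-266-4, a human melanoma cell line, in 3 experiments, each with a single library of every group. All 4 groups carried a stable lentiviral shRNA knock-down of TYRO3, a receptor tyrosine kinase whose extracellular part is shed by ADAM proteases before gamma-secretase releases the intracellular domain. On this background the control group received a GFP plasmid by the labels, which the study's text describes as empty, and the other groups received wild-type TYRO3 (WT), the gamma-secretase-resistant variant ΔGS with the substitution I449A, or the ADAM-resistant variant ΔADAM with the substitutions P408A, L409P and G419P. The plasmids were pEZY-myc-his constructs, introduced with jetPRIME into puromycin-cultured cells that were then starved of serum overnight. The plots label the variants dGS and dADAM. The knock-down line is a single line, no parental cells and no control shRNA were among the libraries, and the labels do not say what was repeated in each experiment, so errors here describe the spread between these libraries.

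Serine is made in the cytosol from the glycolytic intermediate 3-phosphoglycerate. PHGDH oxidizes it in the committing step, PSAT1 transfers an amino group to the product, and PSPH removes the phosphate to give serine. Serine hydroxymethyltransferase, SHMT1 in the cytosol and SHMT2 in the mitochondrion, splits serine into glycine and a carbon unit on tetrahydrofolate. In the mitochondrion MTHFD2 oxidizes that unit, MTHFD1L releases it as formate and ALDH1L2 can oxidize it to carbon dioxide, whereas the trifunctional MTHFD1 takes up formate in the cytosol for purine and thymidylate synthesis. In many tumor cells PHGDH, PSAT1, PSPH, SHMT2 and MTHFD2 are known targets of the transcription factor ATF4.

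The promoter windows of 5 of the enzymes are printed because 3 of the genes (PSAT1, MTHFD2 and MTHFD1L) were higher, and 2 (MTHFD1 and SHMT1) lower, in every TYRO3 library than in the control of its experiment. RefSeq windows of GRCh38.p14, from 250 bases before to 50 bases after a start site, were at hand for 6 of the 9 enzymes. The other one, PHGDH, was also higher in each of those libraries. Its window lies far inside its annotated gene and is not printed, although 19 of the 34 annotated PHGDH transcripts start within that window. Each printed window is written 5′ to 3′ on the strand of its gene, PSAT1 at chr9:78296875-78297174, MTHFD2 at chr2:74198365-74198664, MTHFD1L at chr6:150866236-150866535 and MTHFD1 at chr14:64388103-64388402 on the plus strand, and SHMT1 at chr17:18363501-18363800 on the minus strand. Capitals mark matches, on either strand, to TGATGNAA (a form of the composite element that ATF4 dimers bind), CACGTG (the E-box bound by MYC and related factors) and CCAAT (the box bound by NF-Y).
PSAT1: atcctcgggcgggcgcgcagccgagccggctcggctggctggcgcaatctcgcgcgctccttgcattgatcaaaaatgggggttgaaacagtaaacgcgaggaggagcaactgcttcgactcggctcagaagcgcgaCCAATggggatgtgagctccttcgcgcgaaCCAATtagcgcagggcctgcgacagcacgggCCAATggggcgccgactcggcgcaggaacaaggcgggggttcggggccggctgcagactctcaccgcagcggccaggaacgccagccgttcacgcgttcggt
MTHFD2: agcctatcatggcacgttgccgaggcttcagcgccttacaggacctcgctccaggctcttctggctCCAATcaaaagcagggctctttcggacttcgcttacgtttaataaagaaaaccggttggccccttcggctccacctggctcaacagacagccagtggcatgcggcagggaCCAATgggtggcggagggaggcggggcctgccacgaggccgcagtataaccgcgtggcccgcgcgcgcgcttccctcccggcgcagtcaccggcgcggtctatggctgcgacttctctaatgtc
MTHFD1L: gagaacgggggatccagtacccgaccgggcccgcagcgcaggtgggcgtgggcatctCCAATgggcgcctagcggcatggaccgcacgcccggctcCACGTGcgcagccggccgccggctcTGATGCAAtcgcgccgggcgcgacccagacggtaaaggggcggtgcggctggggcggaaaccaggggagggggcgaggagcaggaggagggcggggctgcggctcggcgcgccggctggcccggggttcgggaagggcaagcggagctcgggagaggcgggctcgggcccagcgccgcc
MTHFD1: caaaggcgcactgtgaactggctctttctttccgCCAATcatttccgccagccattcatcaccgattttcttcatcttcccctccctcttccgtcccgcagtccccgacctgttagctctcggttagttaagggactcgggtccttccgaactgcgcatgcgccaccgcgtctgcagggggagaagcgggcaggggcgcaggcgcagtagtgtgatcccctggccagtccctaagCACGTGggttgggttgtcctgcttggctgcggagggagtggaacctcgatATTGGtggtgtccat
SHMT1: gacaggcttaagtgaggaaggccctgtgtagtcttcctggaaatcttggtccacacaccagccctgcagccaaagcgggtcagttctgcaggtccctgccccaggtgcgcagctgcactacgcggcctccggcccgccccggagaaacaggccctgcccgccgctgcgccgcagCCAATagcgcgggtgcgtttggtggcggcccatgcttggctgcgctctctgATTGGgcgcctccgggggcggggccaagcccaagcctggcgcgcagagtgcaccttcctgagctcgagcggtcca

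Of the 6 enzymes with a window, TGATGNAA was found only in MTHFD1L, as TGATGCAA at bases 150866357 to 150866364 of chromosome 6. That site lies in 3 overlapping windows of alternative MTHFD1L start sites, at positions -129, -90 and 25 from them. A further MTHFD1L window, at chr6:151006758-151007057, held none of the 3 motifs, so that the gene had 4 of the 9 windows examined. Among all 35116 RefSeq promoter windows 3.62% held TGATGNAA. CACGTG, found in 7.26% of all windows, was in windows of MTHFD1L and MTHFD1. CCAAT, found in 34.6% of all windows, was in a window of each of the 6 enzymes, once in PHGDH and MTHFD1L, 2 times in MTHFD2, MTHFD1 and SHMT1, and 3 times in PSAT1. The 3 motifs did not overlap one another in these windows. In GENCODE 29 the whole windows of MTHFD1L, MTHFD1 and PHGDH lie inside the annotated genes, with 85, 300 and 269 of the 300 bases in exons for the windows at the positions named or, for PHGDH, at chr1:119711684-119711983. The windows of PSAT1, MTHFD2 and SHMT1 reach 32, 103 and 63 bases into exons. The letters describe these windows and say nothing of binding in these cells.

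TYRO3 was measured first as a check of the labels. In CPM (counts scaled to a common library size by the TMM method of edgeR) it had 47.3 to 56.6 in the control libraries and 1181 to 3695 in the libraries with TYRO3 constructs. The 3 TYRO3 libraries of experiment 1 had the highest levels, 3064 to 3695 CPM, against 1181 to 1791 CPM in experiments 2 and 3. Library totals ranged from 4008293 estimated counts, in the control library of experiment 1, to 38184838, in the control library of experiment 2. All 8 melanocyte markers examined had a median over 1 TPM (the deposited level, scaled for transcript length and depth), and their summed level was 1643 to 1989 TPM in control, 1068 to 1987 with WT, 1096 to 1605 with ΔGS and 1103 to 1659 with ΔADAM. Of 8 markers of epithelium, leukocytes, endothelium and fibroblasts, 6 had a median below 1 TPM, and KRT5 was at 0 in each library. The other 2, COL1A1 and PDGFRB of fibroblasts and mural cells, had medians of 7.19 and 1.40 TPM. The sum over the list was 4.08 to 14.0 TPM in all 4 groups. Among the melanocyte markers TYRP1 was lowest, with a median of 1.82 TPM and 0.251 TPM in its lowest library.

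The enzymes of serine synthesis were higher with each TYRO3 construct, and SHMT2, MTHFD1L and MTHFD2, grouped as mitochondrial, went the same way. SHMT1 and MTHFD1 in the cytosol were lower. SHMT2 was summed over all its transcripts, and some of them, described below, lack the exon for mitochondrial targeting. Each of the 6 higher genes exceeded the control of its own experiment in 9 of 9 TYRO3 libraries, and each of the 2 lower genes fell below it in 9 of 9. Over all 15090 genes tested, 12.7% were higher and 13.8% lower in all 9 libraries. The 9 libraries share 3 controls, so they are not 9 independent comparisons. In RNA of whole cultures, a change in the number of cells that express a gene and a change in RNA per cell cannot be told apart.

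**Figure D1:**
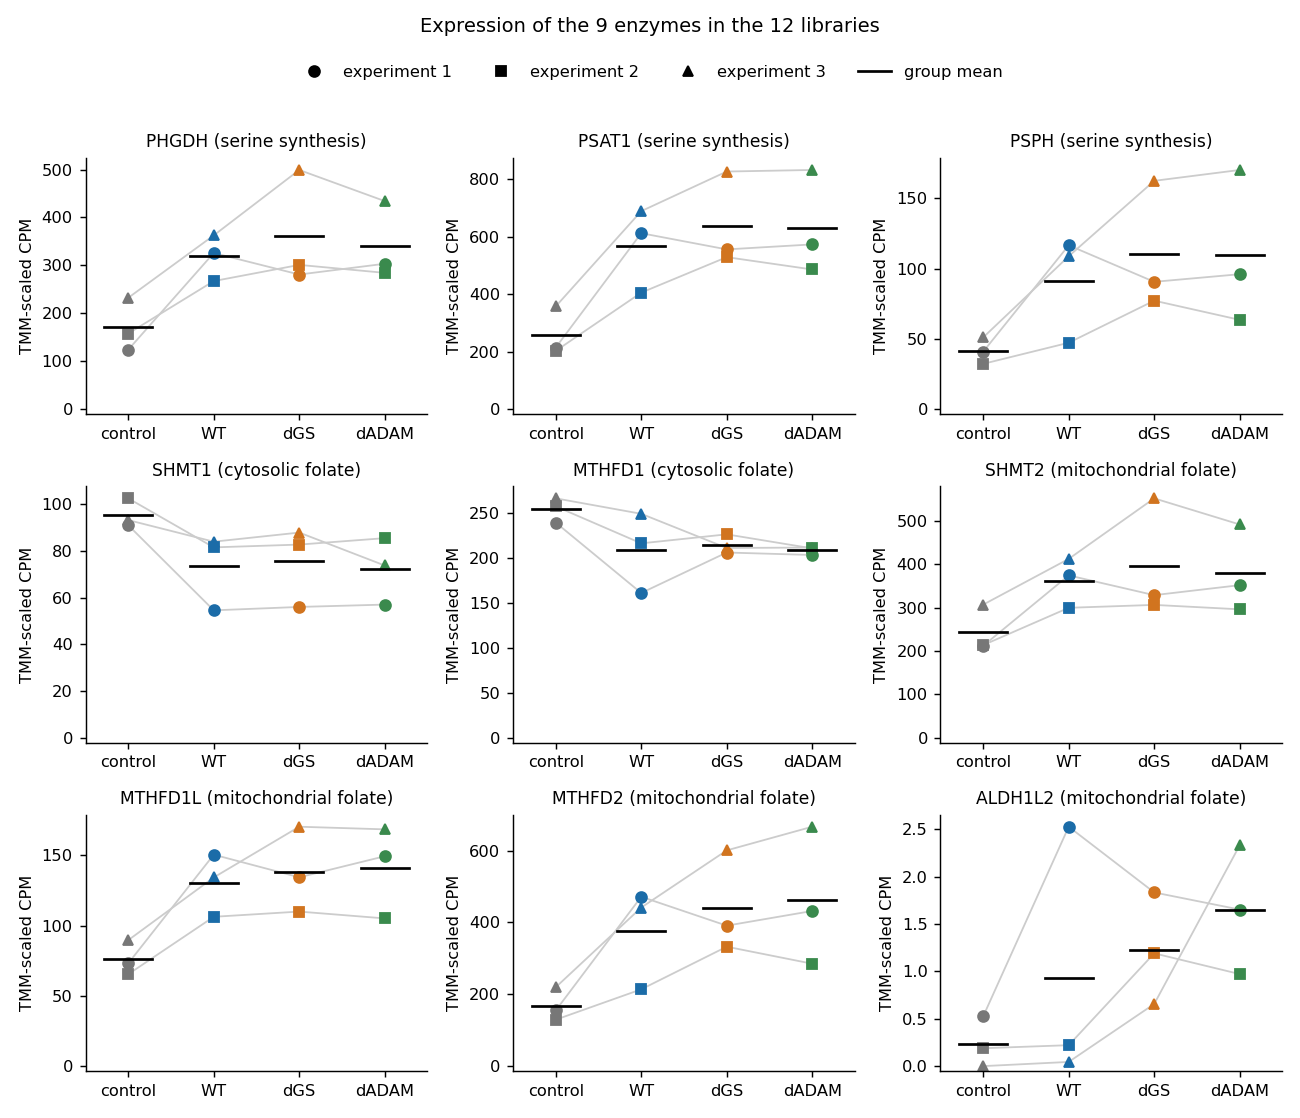
TMM-scaled CPM (vertical axes, from 0) of the 9 enzymes in the 12 libraries, by group, with 1 point per library, grey lines joining the libraries of an experiment and black bars at the group means. Points of PHGDH, PSAT1, PSPH, SHMT2, MTHFD1L and MTHFD2 lie above, and those of SHMT1 and MTHFD1 below, the control of the same experiment in 9 of 9 TYRO3 libraries.

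PHGDH (ENSG00000092621, chromosome 1, 119648411 to 119744226, plus strand, GRCh38) catalyzes the first step of serine synthesis. In experiments 1, 2 and 3 it had 124, 158 and 233 CPM in control, 326, 267 and 363 with WT, 281, 301 and 499 with ΔGS, and 304, 285 and 434 with ΔADAM. The highest control library lay below the lowest library of each TYRO3 group, so the groups did not overlap. The log2 fold change against control was 0.92 ± 0.25 (SE, n = 3 per group) with WT, 1.07 ± 0.25 with ΔGS and 1.00 ± 0.25 with ΔADAM.

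PSAT1 (ENSG00000135069, chromosome 9, 78297143 to 78330093, plus strand), the aminotransferase of the second step, was the most abundant of the 9 transcripts in every TYRO3 group. It had 215, 203 and 357 CPM in control, 612, 405 and 688 with WT, 555, 528 and 826 with ΔGS, and 573, 486 and 831 with ΔADAM. No TYRO3 library fell within the control range. The log2 fold changes were 1.15 ± 0.29 with WT, 1.30 ± 0.29 with ΔGS and 1.29 ± 0.29 with ΔADAM, that is 2.22, 2.46 and 2.44-fold. Within experiments the log2 difference of PSAT1 ran from 0.94 to 1.51.

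PSPH (ENSG00000146733, chromosome 7, 56011051 to 56051604, minus strand), the phosphatase that ends the pathway, had lower levels and a wider spread. Its values were 41.0, 32.4 and 51.2 CPM in control, 117, 47.4 and 109 with WT, 90.7, 77.3 and 162 with ΔGS, and 96.1, 63.6 and 170 with ΔADAM. The WT library of experiment 2, at 47.4 CPM, lay inside the control range, although it was above the 32.4 CPM of the control of its own experiment, and both variants were clear of the control range. The log2 fold changes were 1.14 ± 0.44, 1.41 ± 0.44 and 1.41 ± 0.44 with WT, ΔGS and ΔADAM, and that of PSPH with ΔADAM was 0.89 without the ΔADAM library of experiment 3. PSPH also had the lowest count of the 8 well-covered enzymes, 156 in the shallow control library of experiment 1, with an exact Poisson 95% interval of 132 to 182 that covers counting error only.

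In the cytosolic folate pair the direction was the other way and the size was smaller. SHMT1 (ENSG00000176974, chromosome 17, 18327860 to 18363563, minus strand) had 91.0, 102 and 93.2 CPM in control, 54.5, 81.5 and 83.9 with WT, 56.0, 82.7 and 87.8 with ΔGS, and 57.0, 85.4 and 73.7 with ΔADAM. All 9 TYRO3 libraries were below the lowest control library, and the 3 of experiment 1 were the lowest. The fitted levels were 24.4%, 22.1% and 25.3% below control with WT, ΔGS and ΔADAM, log2 fold changes of -0.40 ± 0.12, -0.36 ± 0.12 and -0.42 ± 0.12. Within experiments the SHMT1 difference was -0.67 to -0.74 in experiment 1 and -0.09 to -0.34 in experiments 2 and 3, and without the control library of experiment 1, the shallowest of the 12, the fitted log2 fold changes were -0.24, -0.20 and -0.26.

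MTHFD1 (ENSG00000100714, chromosome 14, 64388031 to 64463457, plus strand), which uses formate in the cytosol, had 240, 258 and 267 CPM in control, 161, 216 and 249 with WT, 206, 226 and 211 with ΔGS, and 203, 211 and 212 with ΔADAM. The ΔGS and ΔADAM libraries were all below the lowest control library, whereas the WT library of experiment 3 was inside the control range. The log2 fold changes were -0.29 ± 0.11, -0.24 ± 0.11 and -0.28 ± 0.11, and that with WT was -0.16 without the WT library of experiment 1.

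SHMT2 (ENSG00000182199, chromosome 12, 57229327 to 57234935, plus strand), the mitochondrial counterpart of SHMT1, had 212, 214 and 307 CPM in control, 375, 300 and 413 with WT, 329, 307 and 552 with ΔGS, and 352, 296 and 492 with ΔADAM. The 3 TYRO3 libraries of experiment 2, at 296 to 307 CPM, did not exceed the control of experiment 3, so its groups overlapped although each library was above its own control. SHMT2 had log2 fold changes of 0.58 ± 0.25, 0.69 ± 0.25 and 0.64 ± 0.25, or 1.49, 1.62 and 1.56-fold, and the log2 value of SHMT2 with ΔGS was 0.39 without the ΔGS library of experiment 3.

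MTHFD1L (ENSG00000120254, chromosome 6, 150865549 to 151101887, plus strand), the mitochondrial formate-releasing enzyme, had 73.1, 65.4 and 89.6 CPM in control, 150, 106 and 134 with WT, 134, 110 and 170 with ΔGS, and 149, 105 and 168 with ΔADAM. Control and TYRO3 libraries did not overlap. MTHFD1L had log2 fold changes of 0.77 ± 0.21, 0.86 ± 0.21 and 0.88 ± 0.21.

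MTHFD2 (ENSG00000065911, chromosome 2, 74198562 to 74217565, plus strand), the mitochondrial dehydrogenase and cyclohydrolase, had fitted changes close to those of PSAT1 and PSPH. Its values were 155, 129 and 219 CPM in control, 471, 214 and 441 with WT, 391, 332 and 600 with ΔGS, and 432, 285 and 666 with ΔADAM. As for PSPH, the WT library of experiment 2 was the lowest TYRO3 library, at 214 CPM just under the highest control. The log2 fold changes were 1.16 ± 0.38 with WT, 1.39 ± 0.38 with ΔGS and 1.46 ± 0.38 with ΔADAM.

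ALDH1L2 (ENSG00000136010, chromosome 12, 105019784 to 105084577, minus strand) was close to the limit of detection. Its estimated counts in experiments 1, 2 and 3 were 2, 7 and 0 in control, 46, 4 and 1 with WT, 42, 30 and 15 with ΔGS, and 56, 22 and 67 with ΔADAM. The ΔGS and ΔADAM libraries were above each control library, whereas with WT only the library of experiment 1 was. The gene passed the filter on low counts through the TYRO3 groups, its level was at most 0.709 TPM in any library, and nothing is read from its fold change against control, which was fitted on so few counts.

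The model contained the groups and an effect of experiment 1. At the study's thresholds (adjusted p of at most 0.05, over 1.5-fold change) by edgeR's quasi-likelihood test, 0 of the 9 enzymes were called in any comparison with control, where 0.0398%, 0.457% and 1.13% of all genes were called with WT, ΔGS and ΔADAM. At an unadjusted p under 0.05, 8, 9 and 9 of the enzymes passed in those comparisons, where 15.2%, 19.2% and 20.5% of all genes did. With a separate term for each experiment, which pairs each library with its own control, 5 enzymes were called higher with WT, where 1.67% of all genes were, 6 with ΔGS (2.82% of genes) and 6 with ΔADAM (3.15% of genes). PHGDH, PSAT1, PSPH, MTHFD1L and MTHFD2 were called with all 3 constructs and SHMT2 with the 2 variants. None was called lower, against 0.696%, 1.88% and 2.05% of genes. Since the enzymes were chosen with these contrasts known, nothing is read from these counts.

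**Figure D2:**
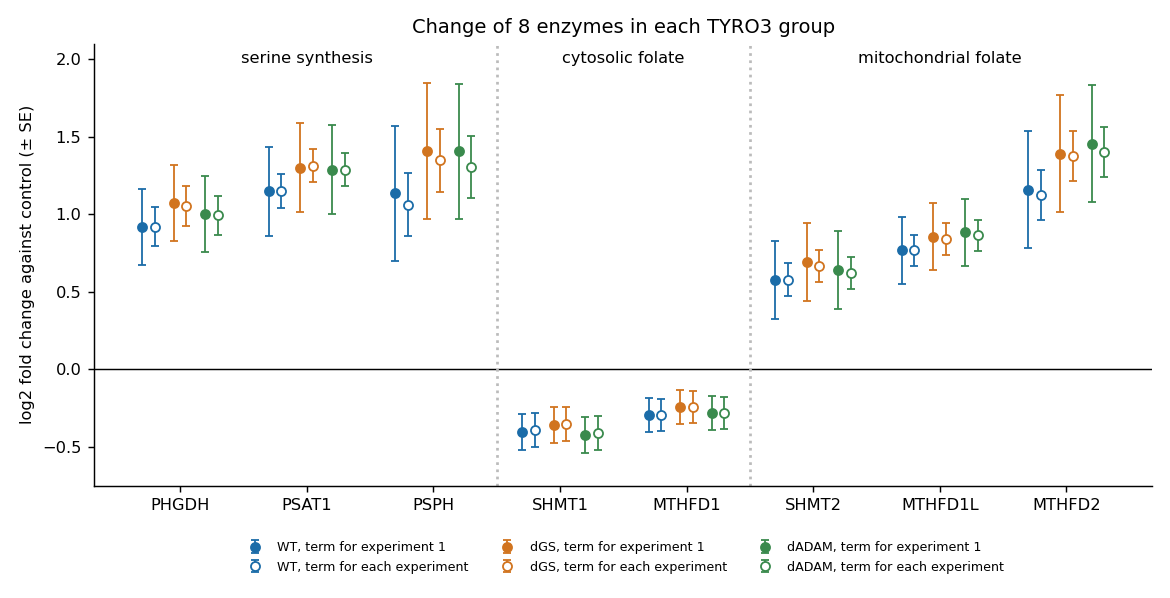
Log2 fold change against control (vertical axis, ± SE, n = 3 libraries per group) of 8 enzymes, grouped by role, with filled points for the fit with a term for experiment 1 and open points for the fit with a term for each experiment. The 6 genes of serine synthesis and the mitochondrion lie above 0 and SHMT1 and MTHFD1 below it with each construct, and the error bars of the 6 higher genes are shorter in the second fit.

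The estimates hardly moved between the fits, but the SE of PSAT1 was 0.29 in the first and 0.11 in the second, and that of SHMT2 was 0.25 and 0.10. PHGDH, PSAT1 and SHMT2 were highest in experiment 3 in every group, control included, whereas TYRO3 itself was highest in experiment 1 in the 3 TYRO3 groups. Without overlap between the libraries of a group and those of the control, 3 enzymes were higher with WT (PHGDH, PSAT1 and MTHFD1L, where 10% of all genes were), 6 with ΔGS (11.1% of genes) and 6 with ΔADAM (12% of genes), the same genes with PSPH, MTHFD2 and ALDH1L2 added in both. Leaving out ALDH1L2, which passed the filter on low counts through the TYRO3 groups, 5 enzymes stood apart with each variant. In the other direction SHMT1 stood apart with all 3 constructs and MTHFD1 with ΔGS and ΔADAM, that is 1, 2 and 2 enzymes, where 10.8%, 9.9% and 13.7% of all genes did. SHMT2 overlapped the control range with each construct.

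Levels between genes were compared on TPM, which is per length. In control SHMT2 was highest with 207 ± 41 TPM (SD, n = 3), followed by PSAT1 (186 ± 64), PHGDH (182 ± 57), MTHFD2 (145 ± 47) and MTHFD1 (134 ± 6). The ranges of neighbours in that order overlapped from SHMT2 down to MTHFD1, and again among SHMT1 (63.7 ± 11.2), PSPH (50.7 ± 15.1) and MTHFD1L (49.1 ± 5.5), whereas MTHFD1 and SHMT1 did not overlap. In each TYRO3 group PSAT1 was first, with means of 435 ± 108, 455 ± 75 and 480 ± 135 TPM for WT, ΔGS and ΔADAM, and MTHFD2 second, with 358 ± 138, 383 ± 73 and 441 ± 179 TPM. PHGDH and SHMT2 came next, the ranges of these 4 neighbours overlapping. SHMT1, sixth of 9 in control, was eighth in each TYRO3 group, above ALDH1L2 alone.

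The cytosolic and mitochondrial enzymes were then compared within each library as ratios of TPM. SHMT2 was again summed over all its transcripts, so its ratio is not one of the mitochondrial form alone. SHMT2 over SHMT1 was 3.40, 2.49 and 4.04 in the control libraries of experiments 1, 2 and 3, 8.01, 4.25 and 6.13 with WT, 7.20, 4.37 and 7.80 with ΔGS, and 7.50, 4.16 and 8.46 with ΔADAM. MTHFD1L over MTHFD1 was 0.32 to 0.41 in control and 0.59 to 1.02 in the TYRO3 libraries. MTHFD2 over MTHFD1 was 0.86 to 1.49 in control and 1.68 to 5.38 with TYRO3. None of the 3 ratios overlapped between control and the TYRO3 libraries, though for SHMT2 over SHMT1 the gap was narrow, 4.04 against 4.16. The MTHFD ratios share MTHFD1, the enzymes were chosen with their values known, and ratios of other genes were not examined. Nothing is therefore read from this separation. On the log2 scale the mean difference from the control of the same experiment was 0.93 ± 0.21 (SD, n = 9 libraries sharing 3 controls) for SHMT2 over SHMT1, 1.01 ± 0.25 for MTHFD1L over MTHFD1 and 1.64 ± 0.47 for MTHFD2 over MTHFD1. By construct the SHMT ratio differed from control by 0.87 ± 0.33 with WT, 0.95 ± 0.13 with ΔGS and 0.98 ± 0.21 with ΔADAM (SD, n = 3).

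**Figure D3:**
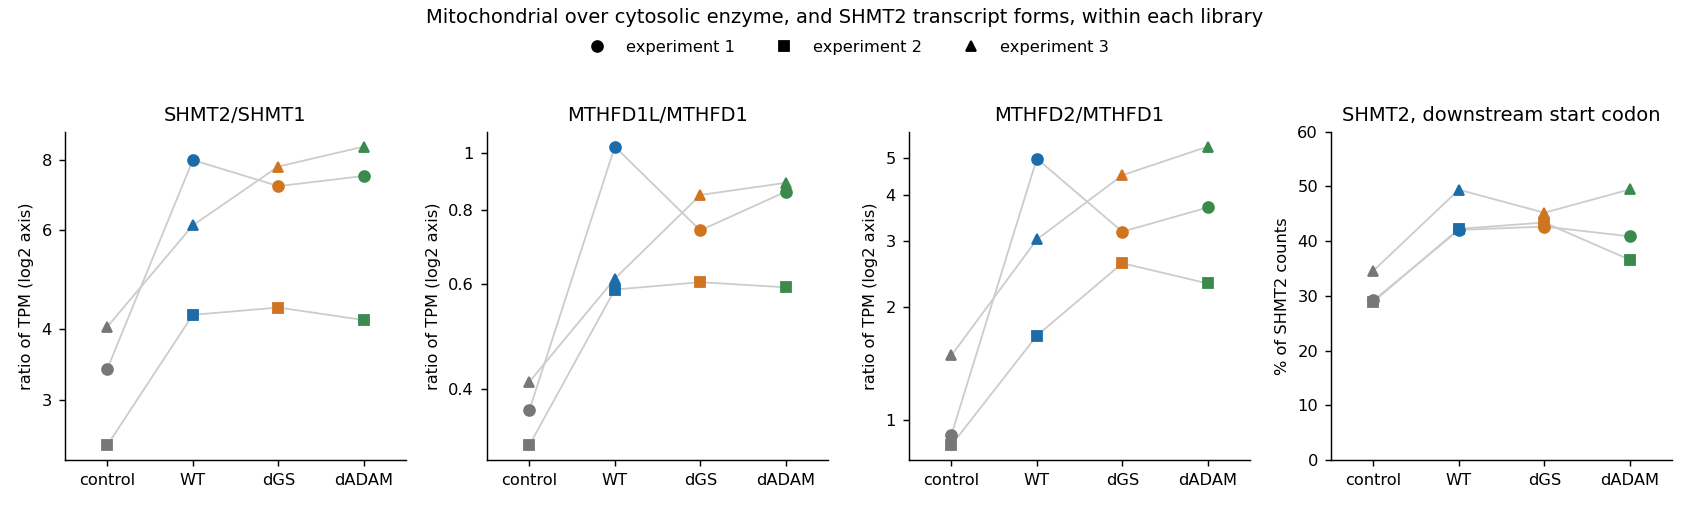
Ratio of TPM of the mitochondrial to the cytosolic enzyme (log2 axes, 3 panels) and share of SHMT2 counts in transcripts with the downstream start codon (percent, from 0, rightmost panel), with 1 point per library and grey lines joining the libraries of an experiment. The 9 TYRO3 libraries lie above the 3 control libraries in each panel, for example 36.6% to 49.4% against 28.9% to 34.6% in the rightmost. The ratio of SHMT2 sums all SHMT2 transcripts.

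Within genes, the reads were divided among annotated transcripts by kallisto, whose split between overlapping transcripts is an estimate. SHMT2 is described first, and was singled out after its values were seen. Its main transcript SHMT2-201 begins at base 57229327 of chromosome 12 and has its start codon at 57229779, in the first exon. SHMT2-203 begins at base 57230360, inside the first intron of SHMT2-201, and has its start codon at 57230833 in the second exon. A protein begun there lacks the stretch encoded by the first exon, which holds the mitochondrial targeting sequence, and is known as a form found in the cytosol and nucleus.

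SHMT2-203 took 1.31%, 3.06% and 4.46% of SHMT2 counts in the control libraries of experiments 1, 2 and 3 and 7.89% to 17.7% in the TYRO3 libraries, with a median of 12.2%. All 15 SHMT2 transcripts with the start codon at 57230833 together took 29.1%, 28.9% and 34.6% in control, 42.0%, 42.2% and 49.4% with WT, 42.7%, 43.4% and 45.2% with ΔGS, and 40.9%, 36.6% and 49.4% with ΔADAM. The 6 transcripts with the start codon of SHMT2-201 took 59.5% to 64.1% in control and 44.4% to 58.5% with TYRO3. The shares did not overlap between control and TYRO3 libraries, and those of the TYRO3 groups overlapped one another. How often transcript shares of other genes separate in this way was not examined, so nothing is read from the separation. In the control library of experiment 1 SHMT2-203 rested on 10.6 estimated counts. Coding transcripts held 73.9% of SHMT2 counts there, against 85.8% to 95.9% in the other libraries. Transcripts annotated as targets of nonsense-mediated decay held 20.9%, against 1.03% to 10.5%. SHMT2-201 alone took 16.3% to 61.2% in control and 41.8% to 51.7% with TYRO3, so the split among transcripts that share a start codon varied widely between control libraries. The level of SHMT2 and its ratio to SHMT1 above sum all SHMT2 transcripts, so neither measures the mitochondrial form alone.

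For 4 of the other enzymes 1 transcript dominated. A single coding transcript held 97.3% of PSAT1 counts, 92.8% of MTHFD1, 85.3% of SHMT1 and 82.9% of MTHFD1L over all libraries. Of MTHFD2 counts, 35.3% were in MTHFD2-205, annotated as a target of nonsense-mediated decay, with 33.8% to 43.3% in control and 29.7% to 37.0% with TYRO3. PSPH had 16.6% of its counts in transcripts of that type, and its main coding transcript PSPH-201 took 28.7% to 44.3% in control, 39.3% to 49.9% with WT, 50.1% to 54.4% with ΔGS and 39.2% to 53.3% with ΔADAM. PHGDH-202 held 51.2% of PHGDH counts and the noncoding PHGDH-230 23.2%. In the shallow control library of experiment 1 coding transcripts held 46.5% of PHGDH counts, against 62.6% to 72.1% in the other libraries. Annotated pseudogenes of PSAT1, PSPH, SHMT1, MTHFD1 and MTHFD2 held at most 0.0488% as many counts as their gene.

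Whether cleavage of TYRO3 mattered for these genes was addressed by comparing the constructs, in contrasts that did not choose the enzymes. By edgeR's quasi-likelihood test 0 of 9 enzymes and 0 genes in all (0% of 15090) were called between WT and the mean of the 2 cleavage-resistant variants, and 0 (0%) between ΔGS and ΔADAM. At an unadjusted p under 0.05, 118 and 119 genes passed (0.782% and 0.789%), none of the enzymes among them, and DESeq2 called 1 gene in each contrast. TYRO3 itself differed by 0.07 on the log2 scale between WT and the variants (95% interval -0.37 to 0.52) and by 0.29 between ΔGS and ΔADAM (-0.23 to 0.80).

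WT was lower than the mean of the variants for each of the enzymes, by differences that were small beside their intervals. The largest among the well-covered genes were -0.27 for PSPH (95% interval -1.08 to 0.54) and -0.26 for MTHFD2 (-0.98 to 0.45). PSAT1 differed by -0.15 (-0.69 to 0.40), PHGDH by -0.12 (-0.58 to 0.35), MTHFD1L by -0.10 (-0.51 to 0.30) and SHMT2 by -0.09 (-0.56 to 0.39). The cytosolic pair had the narrowest intervals, -0.01 for SHMT1 (-0.23 to 0.21) and -0.03 for MTHFD1 (-0.24 to 0.18). ALDH1L2 differed by -1.17 (-2.79 to 0.45) on the few counts given above. With a term for each experiment the interval of PSPH was -0.64 to 0.11 and that of MTHFD2 -0.57 to 0.04, and each adjusted p was 1.00.

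Between ΔGS and ΔADAM the differences of the 8 well-covered enzymes ran from -0.06, for MTHFD2 (-0.87 to 0.75), to 0.07, for PHGDH (-0.46 to 0.60), with an adjusted p of 1.00 for each. The intervals were widest for PSPH (-0.92 to 0.92) and narrowest for MTHFD1 (-0.20 to 0.28). With intervals this wide for PSPH and MTHFD2, the comparison does not show that the constructs acted alike. Without the WT library of experiment 2, the lowest TYRO3 library for PSPH and MTHFD2, the differences of these genes between WT and the variants were 0.08 and 0.04 with the term for experiment 1, and -0.10 and -0.12 with a term for each experiment.

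**Figure D4:**
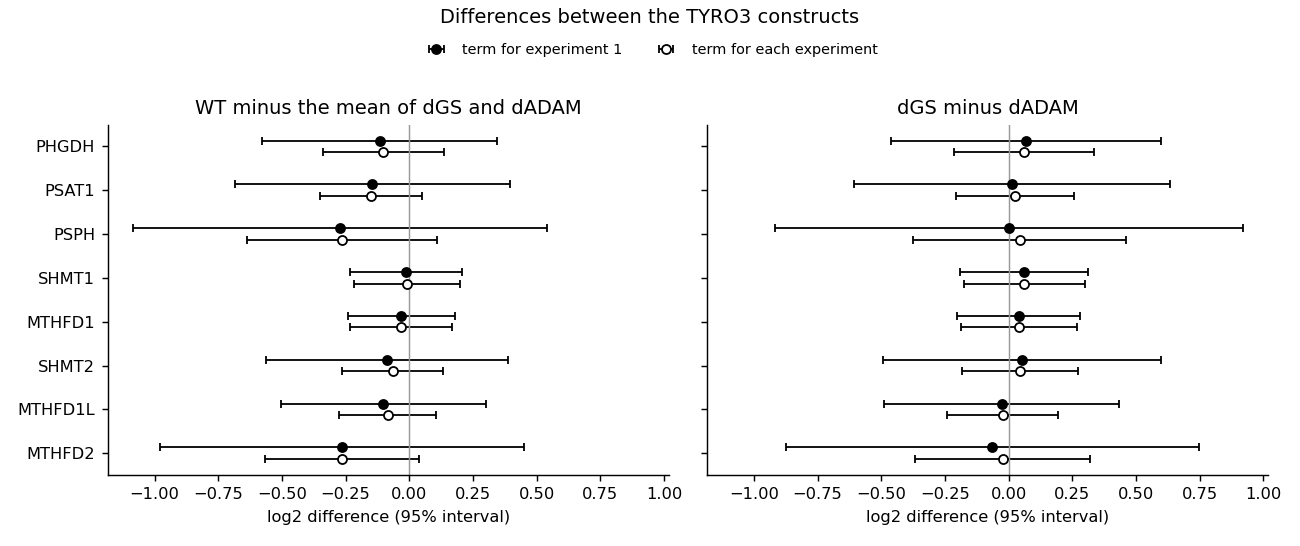
Log2 differences between constructs (horizontal axes, with 95% intervals) for 8 enzymes, WT minus the mean of the variants on the left and ΔGS minus ΔADAM on the right, with filled points for the fit with a term for experiment 1 and open points for a term for each experiment. Each interval includes 0, and those of PSPH and MTHFD2 are the widest in each fit.

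Neighbouring pathways were read from lists of genes other than the 9. The lists too were chosen with earlier results of these data known, so their values against control are a description. Of genes that use serine or glycine, 0 of 12 tested were called with any construct, in either model, and the median log2 fold changes were -0.02, 0.04 and -0.02 with WT, ΔGS and ΔADAM, where the medians of all genes were -0.00, 0.01 and -0.00. SDSL, a serine dehydratase-like gene, had 0.80, 0.89 and 1.10, and AMT, of the glycine cleavage system, 0.77, 1.08 and 0.61, both at under 4 TPM on average. DLD, the abundant dehydrogenase of that system, had -0.13, -0.09 and -0.10.

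In the folate cycle and folate transport, 0 of 15 genes were called with the term for experiment 1, and the medians were -0.17, -0.06 and -0.15. ALDH1L1, the cytosolic relative of ALDH1L2, had -0.68, -0.06 and -0.64 at 0.365 TPM on average, and TYMS, thymidylate synthase, had -0.35, -0.26 and -0.34 at 316 TPM.

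In the methionine cycle 0 of 8 genes were called, with AHCY at -0.42, -0.35 and -0.48, MAT2A at 0.22, 0.29 and 0.18, and the barely expressed BHMT2 at 0.03, 0.77 and 1.15. Of the enzymes of de novo purine synthesis, which consume formyl groups, 0 of 8 were called and the medians were -0.08, -0.10 and -0.11. PAICS had -0.24, -0.26 and -0.29 and GART 0.16, 0.12 and 0.19. Of the glycolytic genes around 3-phosphoglycerate 0 of 6 were called, and all 6 had values below 0 with each construct, from -0.02 to -0.44. PGAM1 had -0.41, -0.37 and -0.44, ENO1 -0.28, -0.18 and -0.32, and GAPDH -0.15, -0.02 and -0.13.

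The amino acid response, a program of ATF4 and genes it is known to drive, had median log2 fold changes of 0.98, 1.14 and 1.16 with WT, ΔGS and ΔADAM. Its genes ran from -0.03 to 2.39 with WT and from -0.10 to 3.07 with ΔADAM. With the term for experiment 1, 2 of 15 genes were called higher, both with ΔADAM, where 0.636% of all genes were: ASNS, asparagine synthetase, and STC2, a secreted glycoprotein. With a term for each experiment 4, 9 and 9 of 15 were called higher with WT, ΔGS and ΔADAM, and none lower. The shares of all genes called higher were 1.67%, 2.82% and 3.15%. Since the list was chosen with earlier results known, nothing is read from these counts. STC2 had log2 fold changes of 2.31 ± 0.55, 2.72 ± 0.55 and 2.91 ± 0.55 (SE). CHAC1, a glutathione-degrading enzyme, had 3.68, 5.42 and 8.34 CPM in control, 44.6, 8.40 and 33.9 with WT, 24.2, 24.9 and 98.6 with ΔGS, and 28.1, 18.9 and 107 with ΔADAM. ATF4 had 246, 211 and 282 CPM in control, 499, 254 and 453 with WT, 390, 386 and 882 with ΔGS, and 432, 350 and 761 with ΔADAM, log2 fold changes of 0.72 ± 0.38, 1.15 ± 0.38 and 1.06 ± 0.38. The WT library of experiment 2 was the lowest TYRO3 library for ATF4, and its ATF4 level lay inside the control range. It was also the lowest for PHGDH, PSAT1, PSPH and MTHFD2, but not for SHMT2 and MTHFD1L. A link between ATF4 and the enzymes was not tested.

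**Figure D5:**
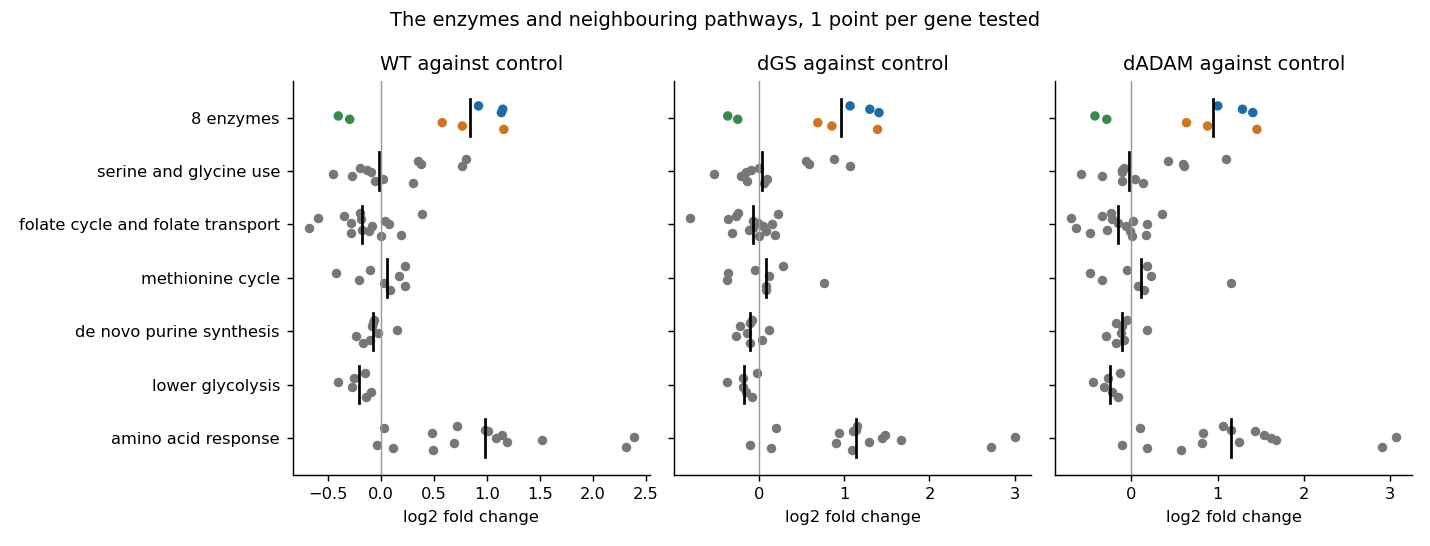
Log2 fold change against control (horizontal axes) of 8 enzymes (blue, serine synthesis; green, cytosolic folate; orange, mitochondrial folate) and of the tested genes of 6 lists (grey), with 1 point per gene, black bars at the medians and 1 panel per construct. The enzymes split to either side of 0, the amino acid response has medians of 0.98 to 1.16, and the other lists have medians between -0.24 and 0.11.

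The genes whose pattern over the 12 libraries lay nearest to the mean of the 9 enzymes were sought among 11078 genes with at least 5 CPM on average, by the mean absolute difference of log2(CPM + 0.5) values centred within experiments. TSEN15, a subunit of the tRNA splicing endonuclease, was nearest at 0.0370, followed by PABPC1L (0.0535), the seryl-tRNA synthetase gene SARS (0.0579), KCTD15 (0.0582) and CAMTA2 (0.0619), where the median gene was at 0.315. SARS, which charges tRNA with serine, had a mean of 136 CPM in control, 220 with WT, 250 with ΔGS and 241 with ΔADAM. The log2 fold changes of the 5 genes ran from 0.56 to 0.88. The mean of the 9 enzymes took in SHMT1 and MTHFD1, which were lower, and the barely detected ALDH1L2. Nearness to that mean is therefore not nearness to the higher enzymes alone.

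The summed melanocyte markers given above lay below the control range in the ΔGS libraries and overlapped it with WT and ΔADAM, and the depth of the control library of experiment 1 was the lowest of all. Their part in the values of the enzymes was not tested. Without that control library and with a term for each experiment, 4, 6 and 6 enzymes were called higher with WT, ΔGS and ΔADAM. In that setting 151, 269 and 287 of all genes were called, in either direction. PSPH with WT was the one enzyme lost. As above, nothing is read from these counts.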

How the data were processed

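Poly(A) RNA was sequenced as paired reads from 12 libraries, 4 groups in 3 experiments. The authors checked the reads with FastQC (0.11.9 per the labels), trimmed them with PRINSEQ and with Trimmomatic (0.33 per the labels), and quantified Ensembl transcripts of GRCh38 with kallisto 0.46.0. They deposited estimated counts and TPM per transcript, made before any batch correction. The strand setting is not given in the sources used here.

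Deposited estimated counts were summed by GENCODE 29 gene symbol and rounded. Of 188753 transcripts 169797 matched, holding 97.4% to 97.5% of counts. Deposited TPM values were summed likewise and used for levels between genes, ratios and markers. Totals were 4008293 to 38184838 counts per library, and intervals on counts cover counting error only.

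The main model (edgeR 4.0.16 in R 4.3.3, quasi-likelihood test, TMM, filterByExpr with a minimum count of 10 and total of 15) held the group and a term for experiment 1. All 12 libraries and 15090 genes were fitted, with Benjamini-Hochberg adjustment over all of them. Calls required an adjusted p of at most 0.05 and more than 1.5-fold change. The alternatives used a term for each experiment, DESeq2 1.42.0, limma 3.58.1 on log2(TPM + pseudocount), other filters and size factors, protein-coding transcripts alone, fewer groups or experiments, and each library left out in turn. The block on experiment was combined with DESeq2, or with the control library of experiment 1 or the WT library of experiment 2 left out, after the data were seen. The pairing by experiment comes from the sample titles. Within experiments, deviations from the group means correlated at 0.04 to 0.26 between control and TYRO3 libraries, and at 0.33 to 0.53 among TYRO3 libraries. Python 3.11.15 served for tables (pandas 2.3.3, scipy 1.17.1, numpy 2.4.6) and matplotlib 3.10.9 for plots.

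The members and lists were chosen with earlier results of these data known. Named beside the 9 enzymes, TYRO3 and ATF4 were, from each list, the 2 genes with the largest mean log2 fold change in size and the 1 with the highest TPM, and the 5 genes nearest in pattern. Of these, 1 is not reported here. ASNS was named for its call, and the SHMT2 and PSPH transcripts were picked, after their values were seen. The main model was tested on simulated data of the WT comparison with 15090 genes and 200 changed. It recovered 145 at 2-fold with 3 false calls and 198 at 4-fold with 8. The simulated means held no effect of experiment, so these numbers do not give its recovery in the real libraries.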

Additional observations from a re-analysis of the deposited data

How the results depend on the processing

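Against control, 0 enzymes were called with the term for experiment 1. The genes called in all under each setting are given in the next paragraph. Nothing is read from the counts of enzymes, which were chosen with these contrasts known. With WT, ΔGS and ΔADAM in turn, DESeq2 called 3, 4 and 5, and no filter on low counts gave 5, 7 and 7. The 7 with no filter included ALDH1L2, from whose fold change nothing is read. The replicate block (a term for each experiment) gave 5, 6 and 6, and the block in DESeq2 gave 5, 7 and 7. With the block, 4, 6 and 6 were called without the control library of experiment 1 and 5, 6 and 6 without the WT library of experiment 2. With at least 10 counts in every library 1 was called with ΔADAM. Leaving out 1 library at a time gave 0 with WT and ΔGS and 0 to 4 with ΔADAM, the 4 arising without the ΔADAM library of experiment 2 or the ΔGS library of experiment 3. The direction of the 8 well-covered enzymes was the same in each of these alternatives, that of ALDH1L2 with WT turned to -0.18 without the WT library of experiment 1 (range -0.18 to 2.64 with 1 library left out, on control counts of 0 to 7), and the ratios of mitochondrial to cytosolic enzymes kept their direction. The cause of these changes was not tested.

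Over all genes 6, 69 and 171 were called, against 376, 608 and 674 by DESeq2, 357, 710 and 784 with the block, 609, 829 and 875 with the block in DESeq2, 565, 764 and 881 with no filter, 3, 4 and 5 with no batch term, 1, 1 and 1 in experiments 2 and 3 alone, 1, 1 and 11 with only the groups compared, 6, 19 and 52 with protein-coding transcripts, 6, 107 and 186 with at least 10 counts in every library, and 2, 1 and 43 or 2, 6 and 20 by limma with a pseudocount of 1 or 0.1. With the block they were 151, 269 and 287 without the control library of experiment 1 and 82, 565 and 626 without the WT library of experiment 2. Leaving out 1 library gave 1 to 20, 1 to 136 and 1 to 449, the 1 in each arising without the control library of experiment 1. Between constructs 6 and 5 genes were called with no filter and 5 and 1 with the block in DESeq2, and no enzyme under any alternative.

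The small differences between constructs turned direction in places. For WT against the variants SHMT1 was 0.010 and MTHFD1 0.12 in experiments 2 and 3 alone, and 0.094 and 0.0012 by limma with a pseudocount of 1, or 0.095 and 0.0011 with 0.1. Leaving out 1 library gave -0.30 to 0.054 for PHGDH, -0.30 to 0.084 for PSAT1, -0.57 to 0.075 for PSPH, -0.051 to 0.051 for SHMT1, -0.21 to 0.068 for SHMT2, -0.15 to 0.11 for MTHFD1, -0.22 to 0.022 for MTHFD1L and -0.52 to 0.045 for MTHFD2.

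For ΔGS against ΔADAM PSPH was -0.011 with DESeq2-type size factors and with at least 10 counts in every library, -0.0096 by DESeq2 and -0.012 with only the groups compared, MTHFD1L was 0.0075 in experiments 2 and 3 alone, and MTHFD2 was 0.017 with protein-coding transcripts. By limma with a pseudocount of 1, PHGDH was -0.024, PSAT1 -0.056, PSPH -0.056, SHMT1 -0.013, SHMT2 -0.048 and MTHFD1 -0.040, and with 0.1 they were -0.025, -0.056, -0.056, -0.013, -0.048 and -0.041. Leaving out 1 library gave -0.18 to 0.23 for PHGDH, -0.20 to 0.25 for PSAT1, -0.42 to 0.52 for PSPH, -0.24 to 0.26 for SHMT2, -0.01 to 0.10 for MTHFD1, -0.24 to 0.16 for MTHFD1L, -0.38 to 0.35 for MTHFD2 and -1.27 to 0.20 for ALDH1L2. ALDH1L2 had 0 to 67 counts per library, and the control library of experiment 1 held the lowest count of each of the other 8 enzymes.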
